A study of Mus musculus with 4 samples.

Results

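Late cornified envelope genes of the Lce1 family, together with 4 other genes of the cornified envelope, were followed in Py2T cells, a mouse line from a mammary tumour, before and after TGFβ. They comprise Lce1f, Lce1g, Lce1h, Lce1i, Lce1j and Lce1k, the envelope proteins involucrin (Ivl) and loricrin (Lor), the protease Casp14 and the transglutaminase Tgm5, which are 10 of 19938 genes measured. Each is read by 1 probe set that carries its symbol alone, and no probe set lists any of them beside another gene. The genes were picked because of how they differed between these same arrays, so their values are a description and carry no test. The study has 2 groups of 2 arrays, all from Py2T cells in DMEM with 10% fetal calf serum. One group was untreated and the other received 2 ng/ml TGFβ for 5 days. TGFβ drives an epithelial to mesenchymal transition in this line. The labels name biological replicates without saying how the cultures were kept apart, so all p-values below measure the spread between these samples.

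The cornified envelope is the protein shell that replaces the plasma membrane of the outermost keratinocytes of the skin. Involucrin is laid down first as a scaffold, loricrin makes up most of the finished shell, and late cornified envelope and small proline-rich (Sprr) proteins are added late. Transglutaminases such as Tgm1, Tgm3 and Tgm5 join these proteins by covalent bonds, and Casp14 helps to process filaggrin in the dying cell. Most of the structural proteins are encoded side by side in the epidermal differentiation complex, on chromosome 3 in the mouse. The Lce1 genes there are short tandem copies of each other, and probes for one copy may also bind RNA of another. That was not tested, since no probe sequences were used.

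Values are RMA log2 levels, so a difference of 1 is a doubling. Medians over all probe sets lay between 6.742 and 6.756 on the 4 arrays, and arrays of one group correlated at 0.997 (untreated) and 0.997 (TGFβ) over all genes, against 0.980 to 0.984 between groups. As a guide to background, 95% of 1181 olfactory and vomeronasal receptor genes lay under a limit that fell between 5.96 and 6.04 on the 4 arrays. Levels under an array's limit are called near background here. Of 7 luminal epithelial markers 6 were above background on every array. Krt19, the remaining marker, lay between 6.01 and 6.11. Their summed log2 levels were 80.7 and 80.4 in untreated cells and 74.9 and 76.5 after TGFβ, and 3 of the 7 passed as lower: Epcam (-1.10, limma adjusted p = 0.0094), Cdh1 (-1.25, limma adjusted p = 0.017, a call lost without untreated replicate 1) and Cldn7 (-2.18, limma adjusted p = 0.0014). Of 6 measured keratinocyte markers 4 were above background on every array, but the cornification keratin Krt1 and the desmosomal cadherin Dsg3 were near background on all arrays. Of the 4, only the basal keratin Krt14 (9.36 to 11.49) lay far above the limits. Krt5 (6.07 to 6.31), Trp63 (6.67 to 6.78) and Krt10 (6.83 to 6.98) lay closer to them. The summed log2 levels of these 6 markers were 41.3 and 42.1 in untreated cells and 40.7 and 40.1 after TGFβ. Of 6 fibroblast markers 4 lay above background on every array (Col1a1, Col1a2, Col3a1 and Pdgfra), and Dcn and Lum were near background on all. The fibroblast sums were 40.5 and 40.8 before and 41.1 and 42.1 after TGFβ, and Col1a1 passed as higher (0.46, limma adjusted p = 0.027), though not without untreated replicate 1, TGFβ replicate 1 or TGFβ replicate 2. Of 6 leukocyte markers Cd68 (7.60 to 9.63) and Cd3e (6.81 to 6.95) lay above background on every array. The other 4, Ptprc among them, were near background on all. Cd68 measured 9.63 and 8.87 before and 7.60 and 8.33 after TGFβ. Its difference of -1.29 did not pass (limma adjusted p = 0.052). The leukocyte sums were 37.5 and 36.6 before and 35.5 and 36.2 after TGFβ. Of 4 endothelial markers 3, Pecam1 among them, were near background on all arrays and 0 above it on all, with sums of 22.2 and 22.1 before and 22.2 and 22.5 after TGFβ. The part of these markers in the results below was not tested. In such bulk RNA, a change in the number of cells that express a gene cannot be told apart from a change in RNA per cell.

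Lce1h had the largest difference. It measured 8.54 and 9.31 on the untreated arrays and 12.80 and 12.38 on the TGFβ arrays. Both TGFβ values thus lay far above both untreated values, and the difference was 3.66 ± 0.27 (SE) on the log2 scale, or 12.7-fold. Lce1j measured 8.22 and 8.46 before and 10.99 and 10.63 after TGFβ, a difference of 2.47 ± 0.15, or 5.53-fold. These are the 2 copies that lay above background on all arrays and differed by more than 2 log2 units, so neither fold starts from the array's floor.

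Lce1g went from 4.77 and 4.92 to 8.01 and 7.50, a measured difference of 2.91 ± 0.17. Its untreated values were near background, where a measured fold can understate the true one. Binding of RNA from other copies could have the opposite effect and was not tested. Lce1i went from 5.95 and 6.19, at the edge of background, to 9.19 and 8.52, a difference of 2.78 ± 0.22. Lce1f was near background in untreated cells, at 5.28 and 5.18, and measured 7.19 and 6.31 after TGFβ. Its difference of 1.52 ± 0.27 rests on 2 TGFβ arrays that lie 0.89 apart. Lce1k had the smallest difference, 0.50 ± 0.08, from 7.70 and 7.79 to 8.25 and 8.23. Its groups did not overlap, which held for 52.6% of all genes. All 6 copies were higher in TGFβ replicate 1 than in TGFβ replicate 2.

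**Figure D1:**
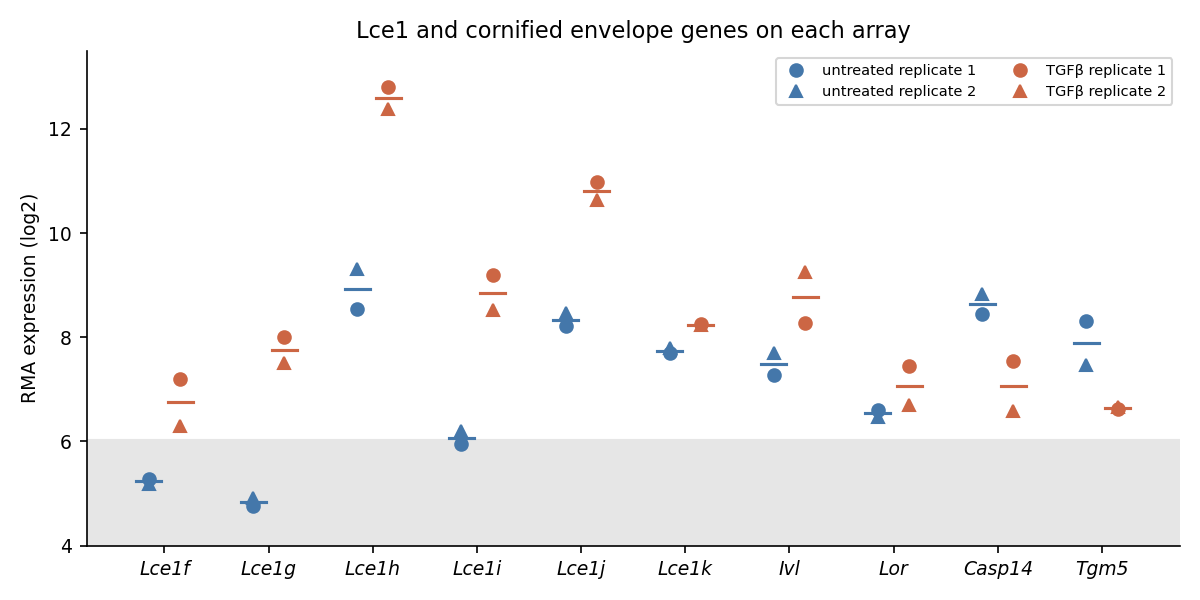
RMA log2 level (vertical axis) of the 10 genes on each of the 4 arrays, with circles for replicate 1, triangles for replicate 2 and short lines at the means of 2 arrays. The grey band ends at 6.04, the highest of the 4 background limits. Untreated Lce1f and Lce1g lie inside it, while the Lce1h arrays after TGFβ lie at 12.80 and 12.38.

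The order of the measured Lce1 differences was Lce1h, Lce1g, Lce1i, Lce1j, Lce1f and Lce1k. Subtracting each untreated array from each TGFβ array gave differences from 3.08 to 4.25 for Lce1h, from 2.58 to 3.24 for Lce1g and from 2.33 to 3.24 for Lce1i. For Lce1j they ran from 2.17 to 2.77, for Lce1f from 1.02 to 2.01 and for Lce1k from 0.44 to 0.55. Neighbours in the order from Lce1h to Lce1j overlap in these ranges, so their ranks are not settled by 4 arrays. Lce1k lay below Lce1f without overlap. The range of Lce1f also lay below that of Lce1j, but its untreated arrays were near background, where a difference can be understated. Its probes may also bind RNA of other copies, which was not tested, so the rank of Lce1f is not settled either.

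In the limma fit over all genes, 6 of the 6 Lce1 genes passed as higher, where 6.49% of all genes did. Their median difference was 2.63, against 0.01 over all genes. The genes were selected on this comparison, so these counts describe the selection and nothing more.

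The Lce1 promoters show how alike the copies are just upstream of the gene and where they part. Lce1b (-0.02 ± 0.07) and Lce1d (-0.0023 ± 0.09), also on the minus strand, lack the exact letters AATAAAAGG and are not printed. They hold nearly the same letters at that place. Lce1b reads AATAAAAAGG, with an added A, and Lce1d reads TATAAAAGG, with the first letter changed. Lce1k, printed below, also holds AATAAAAAGG. The 300-base promoters of Lce1b and Lce1d were 64.8% to 67.5% identical to those of Lce1e, Lce1g, Lce1h and Lce1i. For Lce1a1 this was 65.0% to 69.3%, and for Lce1k and Lce1l 50.9% to 60.5%. From 70 bases before to 20 bases after the RefSeq start, on GRCm38.p6, some of the minus-strand genes read as follows. The letters AATAAAAGG are in capitals where they occur. The first 5 are the copies with large differences that have a promoter entry, and the last 3 are copies with small or no difference.
Lce1h, chr3:92765046-92765135: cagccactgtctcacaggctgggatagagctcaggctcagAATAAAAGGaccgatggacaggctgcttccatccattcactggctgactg
Lce1g, chr3:92752319-92752408: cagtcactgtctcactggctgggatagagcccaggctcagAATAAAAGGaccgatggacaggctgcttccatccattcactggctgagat
Lce1i, chr3:92778880-92778969: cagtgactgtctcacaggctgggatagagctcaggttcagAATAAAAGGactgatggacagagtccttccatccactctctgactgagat
Lce1j, chr3:92790495-92790584: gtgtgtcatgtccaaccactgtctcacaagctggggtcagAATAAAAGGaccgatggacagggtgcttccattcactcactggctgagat
Lce1e, chr3:92709055-92709144: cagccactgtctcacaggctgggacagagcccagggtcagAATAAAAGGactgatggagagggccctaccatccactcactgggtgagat
Lce1k, chr3:92807872-92807961: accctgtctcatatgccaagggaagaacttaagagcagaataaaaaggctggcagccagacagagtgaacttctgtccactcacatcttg
Lce1a1, chr3:92648288-92648377: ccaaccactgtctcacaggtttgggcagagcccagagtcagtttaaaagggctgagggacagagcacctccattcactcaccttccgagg
Lce1l, chr3:92851267-92851356: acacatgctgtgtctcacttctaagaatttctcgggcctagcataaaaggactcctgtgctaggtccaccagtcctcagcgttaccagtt

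The capitals start 30 bases before the start site, where a TATA box would stand. The letters AATAAAAGG, searched on both strands after the values had been seen, occur in 7 of 13 Lce1 promoters and in 0.508% of 32851 promoters of the same length. The 7 are Lce1e, Lce1g, Lce1h, Lce1i and Lce1j, and also Lce1c and Lce1a2. Lce1c differed by 0.62 ± 0.19 without passing (limma adjusted p = 0.092). Lce1a2 showed no difference (0.02 ± 0.08) and was near background on all arrays. The string was thus also found in copies that did not pass. AATAAAAGG is the very string that Lce1e, Lce1g, Lce1h, Lce1i and Lce1j share at this place, and tandem copies are not independent. Its share among Lce1 promoters is therefore a description, and no enrichment was tested. The letters TATAAA were found in Lce1d and Lce1m, and in 13.6% of all promoters. A match is a description of letters and not evidence of binding.

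Over the 300-base promoters, Lce1e, Lce1g, Lce1h and Lce1i resembled each other most. The 6 pairs among them were 78.6% to 86.0% identical, and Lce1g with Lce1i reached the highest value. All 72 other pairs of Lce1 promoters lay between 49.7% and 74.2%. Lce1j, with the second largest difference among the copies that lay above background throughout, was 67.1% to 69.0% identical to these 4.

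**Figure D2:**
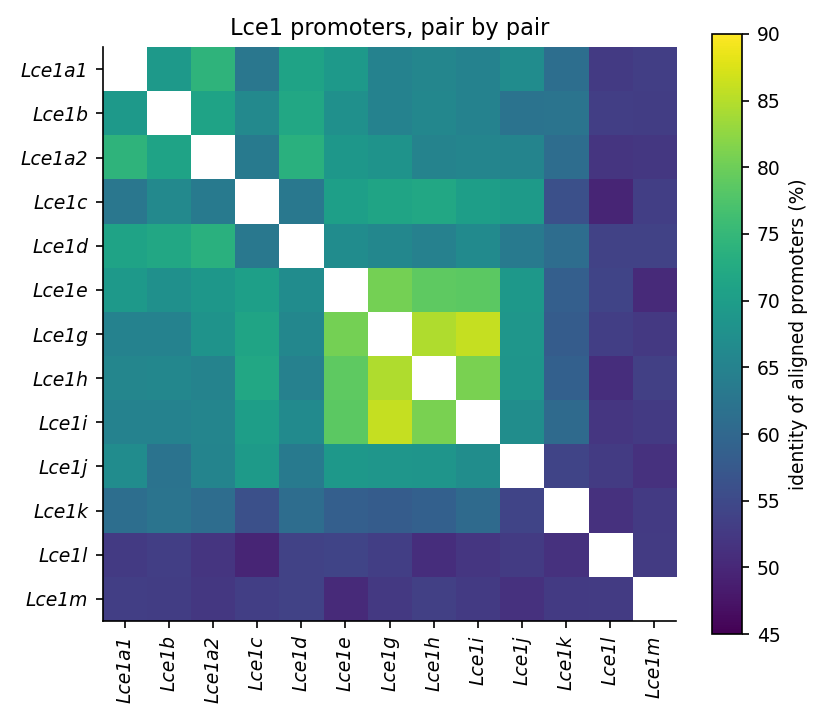
Percent identity of the 300-base promoters for each pair of 13 Lce1 genes, in RefSeq gene order on both axes and with colour for identity. The brightest block holds Lce1e, Lce1g, Lce1h and Lce1i, at 78.6% to 86.0%, while Lce1k, Lce1l and Lce1m resemble the others less.

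Among the Lce1 genes, the copies with the largest differences sit next to each other. Lce1f to Lce1k were selected on this comparison, so their place side by side describes the selection. Probes of neighbouring copies, Lce1e included, may also bind each other's RNA, which was not tested. In RefSeq order the protein-coding genes run Lce1d, Lce1e, Lce1f, Lce1g, Lce1h, Lce1i, Lce1j, Lce1k, Kprp and Lce1l. Lce1e, which was not among the genes selected, rose from 5.76 and 5.86 to 7.49 and 6.95, a difference of 1.41 ± 0.18 (limma adjusted p = 0.0063). Kprp, a keratinocyte proline-rich protein gene on the other side of the group, rose from 5.88 and 5.85 to 6.40 and 6.61, by 0.64 ± 0.10 (limma adjusted p = 0.011). Both were near background in untreated cells. Lce1c differed by 0.62 ± 0.19 without passing (limma adjusted p = 0.092).

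Beyond these neighbours no other measured Lce gene passed. Lce1a1 measured 5.20 and 5.23 before and 5.21 and 5.23 after TGFβ, and the 95% interval of its difference ran from -0.17 to 0.18. Lce1b (interval -0.20 to 0.16) and Lce1l (interval -0.07 to 0.30) did not pass either. All 3 were near background on every array, so a small change in them would be hard to see. The 6 measured genes of the Lce3 and Lce6a kind differed by -0.18 to 0.23, and 5 of them were near background in both groups. Of 11 small proline-rich genes of the complex, whose differences ran from -0.08 to 0.22, 9 were near background in both groups. Sprr1a lay above background, at 7.01 and 7.10 before and 7.18 and 7.10 after TGFβ (0.09 ± 0.08, interval -0.11 to 0.28).

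Across the whole complex, from S100a1 to S100a10, 52 genes outside the selected ones were measured, with 2 higher, 3 lower and 47 that did not pass, and a median difference of -0.0041. Thus 9.62% passed, where 13.6% of all genes did, and 26 of the 52 were near background on every array. Lce1e and Kprp are the 2 that rose. Those that fell were S100a14 (-3.10 ± 0.23, limma adjusted p = 0.0012) and S100a4 (-1.09 ± 0.08, limma adjusted p = 0.0013), both calcium-binding proteins, and Pglyrp3 (-1.57 ± 0.08, limma adjusted p = 5.2e-04), a bactericidal peptidoglycan recognition protein. Without TGFβ replicate 2 the counts were 5 higher and 5 lower.

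**Figure D3:**
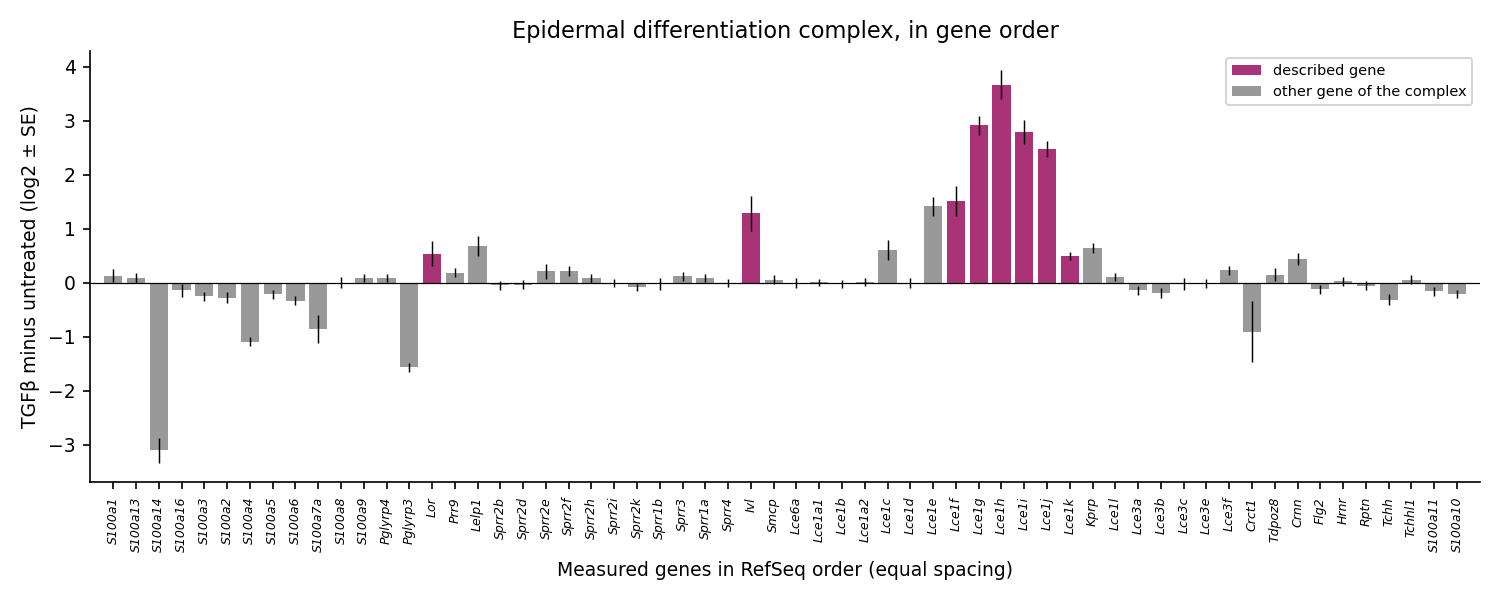
TGFβ minus untreated difference (log2, bars, with SE of the limma fit as error bars) for the measured protein-coding genes of the epidermal differentiation complex in RefSeq order at equal spacing. Purple bars mark Lor, Ivl and Lce1f to Lce1k, and grey bars the rest. The bars from Lce1e (1.41) to Lce1j (2.47) form one run with its peak at Lce1h (3.66).

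The other structural genes of the selection lay apart from that run. Ivl, the early scaffold protein, measured 7.27 and 7.69 before and 8.27 and 9.26 after TGFβ. Its groups did not overlap, but the TGFβ arrays were 0.99 apart and the difference was 1.28 ± 0.33. TGFβ replicate 2 was the higher one, the opposite of the selected Lce1 genes. Lor, the main protein of the mature envelope, measured 6.60 and 6.48 before and 7.44 and 6.70 after TGFβ, a difference of 0.53 ± 0.23 whose 95% interval reached from -0.04 to 1.10. The Lor difference was 0.17 without TGFβ replicate 1 and 0.90 without TGFβ replicate 2, and the Ivl difference was 0.79 without TGFβ replicate 2.

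The 2 enzymes went the other way. Casp14 measured 8.44 and 8.83 in untreated cells and 7.55 and 6.58 after TGFβ, a difference of -1.57 ± 0.32. Tgm5 measured 8.31 and 7.46 before and 6.61 and 6.65 after, a difference of -1.25 ± 0.26, with the untreated arrays 0.85 apart and a difference of -0.83 without untreated replicate 1. Neither gene's groups overlapped. Of the 4 genes outside the Lce1 family, 0 passed as higher, 2 as lower (Casp14 and Tgm5) and 2 did not pass (Ivl and Lor). Over all genes 7.15% passed as lower. Only 1 of the 2 passed without untreated replicate 2, TGFβ replicate 1 or TGFβ replicate 2. Groups did not overlap for any of the 10 selected genes, and over all genes this held for 52.6%.

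Promoters of Ivl and Lor, unlike those of the 13 Lce1 genes, hold the AP-1 letters TGANTCA, which 7.81% of all promoters hold on either strand. AP-1 sites are known from work on the involucrin promoter in human keratinocytes. From 130 bases before to 10 bases after the start, on the minus strand of GRCm38.p6 and with the match in capitals, they read:
Ivl, chr3:92573726-92573865: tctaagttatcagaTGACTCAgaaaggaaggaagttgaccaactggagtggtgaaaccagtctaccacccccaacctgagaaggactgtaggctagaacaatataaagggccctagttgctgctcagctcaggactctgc
Lor, chr3:92083133-92083272: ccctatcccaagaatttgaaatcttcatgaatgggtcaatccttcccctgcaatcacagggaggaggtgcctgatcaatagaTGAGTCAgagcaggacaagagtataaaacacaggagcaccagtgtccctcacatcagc

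The match starts 116 bases before the start in Ivl and 48 bases before it in Lor, and both promoters also hold TATAAA. Of the other letters searched on both strands, the core of the antioxidant response element that Nrf2 binds (TGACNNNGC, 12.4% of all promoters) was found in Lce1d, Casp14 and Tgm5. The Tead letters GGAATG (14.7%) were found in Lce1c, Lce1g, Lce1i, Lce1l and Casp14. The Grainyhead letters AACCNGTT (2.09%) were found in Tgm5. The Smad palindrome GTCTAGAC (0.213%) was in none of the 17 promoters searched.

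Other envelope proteins and transglutaminases, 43 measured genes, showed 2 higher, 2 lower and 39 that did not pass, with a median difference of -0.0024. Thus 9.30% passed, where 13.6% of all genes did. The 2 higher ones are again Lce1e and Kprp. Periplakin (Ppl), a plakin that ties the envelope to desmosomes and keratin filaments, fell from 9.59 and 9.62 to 7.01 and 7.55, by 2.33 on the log2 scale (limma adjusted p = 0.0013). Csta1, a cysteine protease inhibitor of the stefin family, also passed as lower (-0.34 ± 0.08, limma adjusted p = 0.044), but was near background on every array and did not pass when any array was left out. Tgm1, the main transglutaminase of the epidermis, measured 6.85 and 7.03 before and 6.75 and 6.76 after TGFβ (-0.18 ± 0.09, interval -0.41 to 0.04). Of the 43 genes, 25 were near background on all arrays. Without TGFβ replicate 2, 5 passed as higher, and without either untreated array or TGFβ replicate 1, 1 passed as lower.

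Among 23 proteases, protease inhibitors and peptidylarginine deiminases, 1 rose, 9 fell and 13 did not pass. Thus 43.5% passed in either direction, where 13.6% of all genes did and 7.15% fell. Of the 23, 5 were near background on all arrays. Among all 19938 genes, 6148 were near background on both untreated arrays. Shares here and in the other lists were not matched for level of expression. The list's median difference was -0.07. The kallikrein Klk10 fell from 12.25 and 12.59 to 8.81 and 9.46, by 3.28 on the log2 scale (limma adjusted p = 0.0010). Prostasin (Prss8, -2.26 ± 0.31, limma adjusted p = 0.0086) and matriptase (St14, -1.86 ± 0.17, limma adjusted p = 0.0023) are membrane proteases that act in one cascade in the epidermis, and both fell. Padi3, which converts arginine to citrulline in filaggrin and trichohyalin, rose by 0.49 ± 0.10 (limma adjusted p = 0.034), and did not pass without untreated replicate 1 or 2 or TGFβ replicate 2. The count of rises in the list was 0 without untreated replicate 1 or TGFβ replicate 2.

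Barrier lipid enzymes went both ways, with 2 higher, 2 lower and 13 that did not pass among 17. That is 23.5%, where 13.6% of all genes passed. Of the 17, 9 were near background on all arrays. Elovl4, which makes the very long fatty acids of skin ceramides, rose from 7.46 and 7.34 to 9.63 and 9.64 (2.24 ± 0.08, limma adjusted p = 2.6e-04), and Ugcg, the glucosylceramide synthase, rose by 0.75 ± 0.10 (limma adjusted p = 0.0084). The ceramide synthase Cers3 fell by 1.21 (limma adjusted p = 0.028), a call lost without untreated replicate 1 or 2, which left 1 fall, and the lipoxygenase Aloxe3 fell by 0.84 on the log2 scale (limma adjusted p = 0.0099).

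Keratins and desmosomal genes of the epidermis showed 0 higher, 5 lower and 15 that did not pass among 20, where 7.15% of all genes passed as lower and 6.49% as higher. The basal keratin Krt14 fell from 10.79 and 11.49 to 10.16 and 9.36 (-1.38 ± 0.32, limma adjusted p = 0.043). Without untreated replicate 2 the counts were 1 higher and 3 lower. The Krt14 call was lost without untreated replicate 2 (-1.03) or TGFβ replicate 2 (-0.99). The desmosomal membrane protein Perp (-1.03 ± 0.08, limma adjusted p = 0.0012) and the plakophilin Pkp3 (-0.78 ± 0.09, limma adjusted p = 0.0041) fell. Of the 20 genes, 7 were near background on all arrays. Krt1 and Krt10, keratins of suprabasal cells, did not pass. Krt1 had a difference of 0.13 ± 0.08 (interval -0.07 to 0.32) near background, and Krt10 one of -0.01 ± 0.08 (interval -0.21 to 0.20) at 6.93 and 6.90 before and 6.98 and 6.83 after TGFβ.

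Regulators of epidermal differentiation showed 2 higher, 10 lower and 18 that did not pass among 30, with a median difference of -0.29. Over all genes 7.15% passed as lower and 6.49% as higher. Of the 30, 3 were near background on all arrays. Zfp750, a factor that acts downstream of p63 in keratinocyte differentiation, fell from 8.79 and 8.14 to 6.46 and 6.19 (-2.14 ± 0.22, limma adjusted p = 0.0033). The Grainyhead factor Grhl2 (-1.60 ± 0.12, limma adjusted p = 0.0012), the receptor Notch1 (-1.35 ± 0.15, limma adjusted p = 0.0045) and the barrier factor Klf4 (-1.02 ± 0.11, limma adjusted p = 0.0040) fell as well. Junb, a subunit of AP-1, rose by 0.96 ± 0.12 (limma adjusted p = 0.0063) and the bZIP factor Maf by 0.78 ± 0.10 (limma adjusted p = 0.0068). The other AP-1 subunits of the list, named after their values were seen, all had negative differences. Jund (-0.46 ± 0.08, limma adjusted p = 0.016) and Fosl2 (-0.41 ± 0.09, limma adjusted p = 0.040) passed as lower, but Fosl2 did not when any array was left out and Jund passed only when TGFβ replicate 2 was the one left out. Jun (-0.37), Fos (-0.28) and Fosl1 (-0.20) did not pass, though Jun did without untreated replicate 1 (-0.64). Trp63, the p63 gene of stratified epithelia, did not pass, at 6.78 and 6.77 before and 6.70 and 6.67 after TGFβ (interval -0.27 to 0.09). Grhl3 differed by -0.26 ± 0.08 without passing (limma adjusted p = 0.083).

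**Figure D4:**
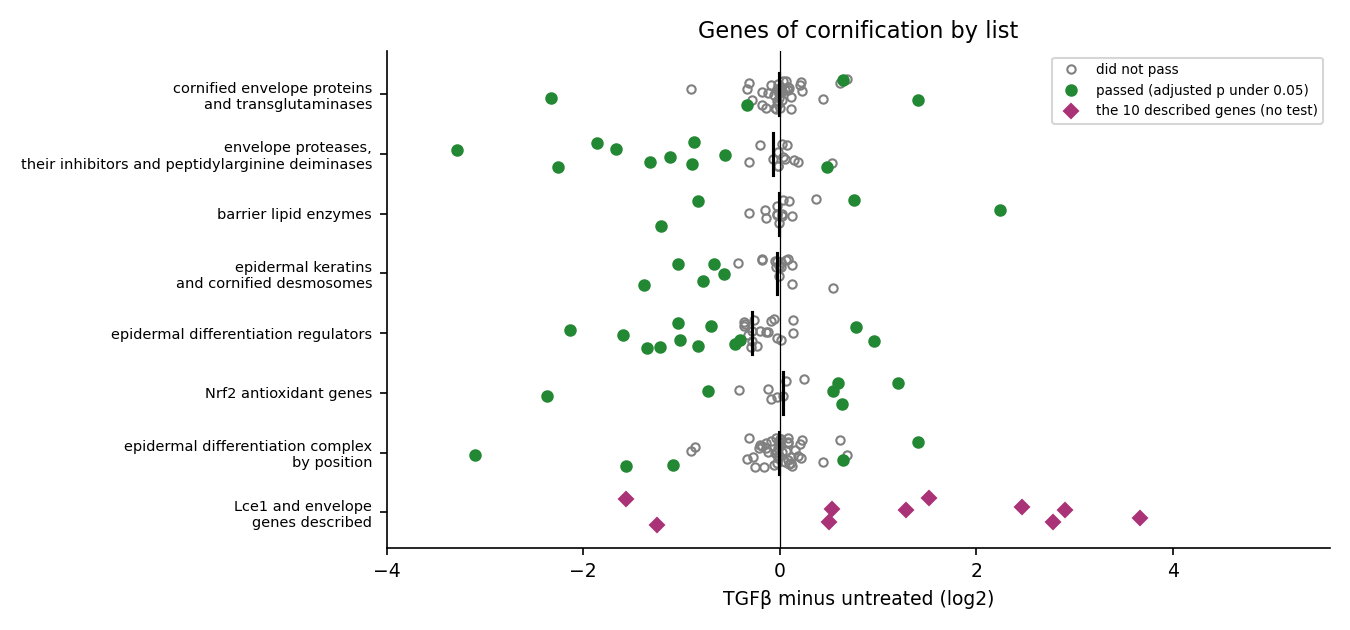
TGFβ minus untreated difference (log2, horizontal axis) of each measured gene in 7 lists, with filled green points for genes that passed limma at an adjusted p under 0.05, open points for the rest and a black line at each list's median. Purple diamonds are the 10 selected genes, from Casp14 (-1.57) to Lce1h (3.66), which carry no test.

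Nrf2 is known to induce Lce1 and Sprr2 genes in mouse epidermis. Whether Nrf2 played a part in the Lce1 differences here was not tested. Of 13 measured Nrf2 genes, 4 rose (2 without untreated replicate 1), 2 fell and 7 did not pass. Over all genes 6.49% passed as higher and 7.15% as lower. Of the 13, 0 were near background on all arrays. Heme oxygenase Hmox1 rose by 1.20 ± 0.08 (limma adjusted p = 7.7e-04), the NADPH-producing enzyme Me1 by 0.59 ± 0.07 (limma adjusted p = 0.0063) and Osgin1 by 0.64 ± 0.10 (limma adjusted p = 0.014), the last not without untreated replicate 1. The glutathione transferase Gsta4 fell by 2.37 (limma adjusted p = 0.0087) and Nfe2l2, the gene of Nrf2 itself, by 0.73 on the log2 scale (limma adjusted p = 0.0046).

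The mean profile of the 6 Lce1 genes, each centred over the 4 arrays, was nearest to those of Ptprn, Sema4f, Ncam1, Cotl1 and Timp3 among genes outside the family, by Euclidean distance over the 4 arrays. Ptprn, a phosphatase-like protein of secretory granules, was nearest at a distance of 0.168. It measured 7.01 and 7.28 before and 9.75 and 9.41 after TGFβ. Sema4f is a semaphorin, Ncam1 a cell adhesion molecule, Cotl1 an actin-binding protein and Timp3 an inhibitor of metalloproteinases, at distances of 0.179, 0.229, 0.239 and 0.312. Of the Lce1 genes themselves only Lce1j lay as close to the mean profile (0.181). Lce1i (0.497), Lce1g (0.606), Lce1f (0.874), Lce1h (1.41) and Lce1k (1.84) lay farther away, so the mean stands poorly for the single copies. With 4 arrays in 2 groups, likeness here is mostly likeness in the size of the difference.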

How the data were processed

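The authors deposited 1 log2 value per probe set and array, made with RMA (background correction, equalized array distributions, probe summary) in the R package oligo, per the submitters' processing notes. Version, annotation and genome build of the array: not given in the sources used here. A gene was represented by its brightest probe set with 1 symbol (19938 genes). Probe sets with several symbols (1621) or none (12146) were not analysed as genes.

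TGFβ and untreated arrays were compared over all genes with limma 3.58.1 in R 4.3.3 (moderated, two-sided, 2 residual and 3.77 prior degrees of freedom), with Benjamini-Hochberg adjustment across all genes and a threshold of 0.05. Nothing was filtered or normalized further. Permuting 2 against 2 arrays exactly gives no two-sided p below 0.333, so it was not used.

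The 10 genes described, the lists, motifs and tests were chosen with earlier results of these data known. Named beside the 10 are up to 3 called genes with the largest rise and fall of each list, 14 genes fixed whatever their values (of these, Lce1m and Flg are not analysed here) and the 5 nearest profiles. Others were named after their values were seen. Promoters are RefSeq's, on GRCm38.p6, found for 9 of the 10 genes, and were aligned end to end with Biopython 1.88 (match 1, mismatch 0, gap opening -1, gap extension -0.2).

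Alternatives were other array scalings, leaving out the dimmest 25% of genes, averaging probe sets, another variance model, a replicate block, and leaving out each array. The fit was run on simulated data with known changes and noise drawn from its own variance model. That checks the code and cannot show how well these arrays meet the model. The number of arrays limits the precision.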

Additional observations from a re-analysis of the deposited data

How the results depend on the processing

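All 10 selected genes kept their direction in each of the 12 alternatives. Leaving out each array in turn gave differences of 0.17 to 0.90 for Lor, 0.79 to 1.78 for Ivl and -1.67 to -0.83 for Tgm5. With the replicate number as a block, 785 genes passed as higher and 839 as lower, against 1294 and 1426 without it. The deviations of same-numbered arrays correlated at -0.213, which with 2 arrays per group cannot show whether the numbers pair the arrays. The crossed pairing, chosen after seeing the data, gave 1683 and 1957. Leaving out each array in turn gave 740 to 1167 higher and 751 to 1093 lower, with 784 and 751 without untreated replicate 1, 740 higher without untreated replicate 2 and 823 higher without TGFβ replicate 1. Of the selected genes 4 to 7 then passed as higher and 1 to 2 as lower, with 1 lower under an intensity trend with robust variances and 0 under the block. Without one array, envelope proteins showed 2 to 5 higher and 1 to 2 lower, proteases 0 to 1 higher, lipid enzymes 1 to 2 lower, keratins and desmosomes 0 to 1 higher and 3 to 5 lower, Nrf2 genes 2 to 4 higher, and the complex 2 to 5 higher and 3 to 5 lower. Under the block, 1 envelope protein, 1 lipid enzyme and 3 keratin or desmosome genes passed as lower. The crossed pairing gave 5 higher and 5 lower envelope proteins, 2 higher proteases, 1 higher keratin or desmosome gene, and 5 higher and 7 lower genes of the complex. Without the dimmest genes 1 envelope protein was lower, and with an intensity trend 5 genes of the complex were lower. The cause of these shifts was not tested, except that fewer arrays or residual degrees of freedom are built into the left-out arrays and blocks. Of the other named genes, 30 of 657 repeats lost a call, for Csta1, Padi3, Cers3, Krt14, Osgin1, Jund, Fosl2, Cdh1 and Col1a1, 7 gained one, for Jun, Pdgfra and Cd68, and 0 of those that passed reversed. Members have 1 probe set each, so other probe sets changed nothing. Signal over background limits Lce1f, Lce1g and the copies that stayed dim.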

Other observations

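Some genes of the complex differed by more than 0.5 without passing, and were named after their values were seen. Crct1, a cysteine-rich protein gene between the Lce3 and Lce1m genes, measured 10.37 and 9.76 in untreated cells and 8.27 and 10.05 after TGFβ, so its groups overlapped. Lelp1, a late cornified envelope-like proline-rich gene close to Lor, measured 5.74 and 5.70 before and 6.69 and 6.10 after TGFβ. The TGFβ arrays of Lelp1, Lor, Lce1c, Lce1e and all 6 selected Lce1 genes were higher in replicate 1. Those of Ivl, Crct1, Kprp, S100a7a, S100a14, S100a4 and Pglyrp3 were higher in replicate 2. S100a7a, a relative of psoriasin, measured 9.43 and 9.76 before and 8.33 and 9.14 after TGFβ.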
